A study of Mus musculus with 15 samples.

Results

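The collagen chains of the mouse embryonic heart are described here across 3 Adamts16 genotypes. The chains were taken from the deposited expression table as every protein-coding gene whose symbol is Col, a number, the letter a and a number. That rule found 44 of the 55335 gene identifiers in the table. Of these, 32 had a mean of at least 0.5 FPKM (fragments scaled to gene length in kilobases and to 1e6 fragments sequenced) over all libraries and entered the tests, while 12 lay below that level.

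RNA from mouse hearts at stage E14.5 had been sequenced in 15 libraries. Of these, 4 libraries came from Adamts16+/- embryos, 4 from Adamts16+/H355Q embryos and 7 from WT embryos. Both mutant groups carry 1 altered copy of Adamts16, which encodes a secreted metalloproteinase of the ADAMTS family. The first lacks a working copy by its genotype symbol and the second carries an H355Q substitution; the labels name no promoter, Cre or other allele, and neither mutant group is homozygous. The labels do not say whether a library is 1 heart or a pool, nor whether libraries come from separate litters, so each p-value reflects only how these libraries spread, which may be technical. The study's title concerns extracellular matrix disorganization and the aortic valve, while the tissue is whole heart.

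Collagens are trimers of chains wound into a triple helix and secreted into the extracellular matrix. Fibrillar collagens assemble into the fibrils that give valves, vessel walls and the cardiac interstitium their tensile strength. Network-forming collagen IV makes the sheet of basement membranes, collagen VI makes beaded microfilaments around cells, and FACIT collagens (fibril-associated collagens with interrupted triple helices) coat fibril surfaces. Multiplexins carry long interruptions and sit in basement membrane zones, and the transmembrane collagens span the cell membrane.

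The smallest FPKM values implied depths, in units of 1e6 fragments, of 37.1 to 47.4 for Adamts16+/- hearts, 50.4 to 58.0 for Adamts16+/H355Q hearts and 41.4 to 55.4 for WT hearts. Adamts16 itself was near the lower end of detection, at 0.0635 to 0.235 FPKM in Adamts16+/- hearts, 0.0677 to 0.125 FPKM in Adamts16+/H355Q hearts and 0.0324 to 0.235 FPKM in WT hearts, so its level does not check the labels. Cardiomyocyte markers summed to 7135 FPKM or more in every library, as the heart label states. On the leading principal component of all tested genes, which held 27.6% of the variance, the Adamts16+/- libraries lay at -18.7 to -11.8 with WT libraries 1 to 4 at -19.6 to -12.2. The Adamts16+/H355Q libraries lay at 8.5 to 23.1 with WT libraries 5 to 7 at 8.0 to 36.1. No label separates the WT libraries. Values without WT libraries 5 to 7 or without WT libraries 1 to 4 are therefore given beside the main chain results that they change. Xist and Ddx3y, from the X and Y chromosomes, were both above 1 FPKM in 9 libraries. As the samples are bulk RNA, fewer cells of a type and less RNA per cell cannot be told apart.

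The promoter windows are shown for 2 of the chain pairs whose partners moved in parallel from library to library. Their ratios ranged 1.33-fold for Col4a1 to Col4a2 and 1.30-fold for Col6a1 to Col6a2. The ratio of Col4a5 to Col4a6, whose windows are not shown, also ranged 1.30-fold. The part of the window sequences in these levels was not tested. Each window runs from 250 bases before to 50 bases after the RefSeq start, on the strand of the gene, in GRCm38.p6. Capitals mark a motif found on either strand. The motifs searched were the CCAAT box, spelled CCAAT, then the GC box, spelled GGGCGG, and the TATA box, spelled TATAAA. No match overlapped another in these windows. Col4a1 lies on the minus strand at chr8:11312777-11313076 and Col4a2 on the plus strand at chr8:11312555-11312854, and these windows share 78 bases. Col6a1 lies on the minus strand at chr10:76725995-76726294 and Col6a2 on the minus strand at chr10:76623581-76623880.
Col4a1: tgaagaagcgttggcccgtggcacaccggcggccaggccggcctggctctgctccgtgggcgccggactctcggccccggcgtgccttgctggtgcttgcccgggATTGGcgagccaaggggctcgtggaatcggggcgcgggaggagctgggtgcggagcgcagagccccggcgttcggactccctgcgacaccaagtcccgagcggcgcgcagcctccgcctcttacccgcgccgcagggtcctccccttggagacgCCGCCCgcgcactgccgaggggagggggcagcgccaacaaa
Col4a2: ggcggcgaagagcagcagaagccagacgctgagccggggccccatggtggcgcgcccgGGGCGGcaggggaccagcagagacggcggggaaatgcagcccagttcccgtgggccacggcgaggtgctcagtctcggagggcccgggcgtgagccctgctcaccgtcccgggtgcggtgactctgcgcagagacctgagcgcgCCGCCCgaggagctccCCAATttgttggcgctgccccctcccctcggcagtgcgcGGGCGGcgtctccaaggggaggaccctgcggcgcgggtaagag
Col6a1: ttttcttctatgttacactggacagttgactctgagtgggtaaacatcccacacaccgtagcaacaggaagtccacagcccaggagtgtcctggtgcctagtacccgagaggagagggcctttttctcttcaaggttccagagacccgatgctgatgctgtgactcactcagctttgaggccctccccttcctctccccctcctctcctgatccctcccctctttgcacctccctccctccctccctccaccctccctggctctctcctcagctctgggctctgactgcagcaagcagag
Col6a2: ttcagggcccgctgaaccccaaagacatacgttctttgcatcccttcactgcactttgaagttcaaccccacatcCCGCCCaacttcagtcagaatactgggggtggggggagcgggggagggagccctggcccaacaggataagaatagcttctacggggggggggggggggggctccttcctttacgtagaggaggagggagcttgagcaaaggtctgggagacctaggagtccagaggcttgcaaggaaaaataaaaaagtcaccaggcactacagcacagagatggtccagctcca

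The Col4a1 and Col4a2 genes are transcribed away from each other, and their annotated first exons overlap by 22 bases. Their windows were 74.0% and 73.7% G or C, against 57.3% for Col6a1 and 56.7% for Col6a2. The Col4a1 window held 1 CCAAT and 1 GGGCGG match, and the Col4a2 window held 1 CCAAT and 3 GGGCGG matches. The GGGCGG match of Col4a1 lies in the 78 shared bases and is the same site as the last one of Col4a2. The Col6a2 window held 1 GGGCGG match and the Col6a1 window none of the 3 motifs. The RefSeq start of Col6a1 lies 124 bases from the start in the annotation used for symbols. RefSeq windows matched 35 of the 44 chains, in 38 windows. GGGCGG was present in 60.5% of the chain windows and in 35.7% of all 32851 windows, CCAAT in 34.2% and 37.4%, and TATAAA in 13.2% and 13.6%. These matches are letters in a window and describe no binding.

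Across the 3 genotypes, 6 chain differences passed the test, each in a single comparison. Col14a1 fell in Adamts16+/- hearts relative to WT hearts, and Col6a2 fell in Adamts16+/H355Q hearts relative to WT hearts. Col23a1, Col5a1, Col13a1 and Col18a1 were higher in Adamts16+/- hearts than in Adamts16+/H355Q hearts. In GRCm38, the annotation places Col14a1 at chr15:55307750-55520803 (plus strand, ENSMUSG00000022371), Col6a2 at chr10:76595762-76623630 (minus strand, ENSMUSG00000020241), and Col23a1 at chr11:51289920-51583918 (plus strand, ENSMUSG00000063564). It places Col5a1 at chr2:27886425-28039514 (plus strand, ENSMUSG00000026837), Col13a1 at chr10:61838236-61979108 (minus strand, ENSMUSG00000058806), and Col18a1 at chr10:77052178-77166548 (minus strand, ENSMUSG00000001435). The test was limma's moderated test on log2(FPKM + 0.5) over 15172 genes, with Benjamini-Hochberg adjustment over all of them and a call at an adjusted p under 0.05. All fold changes are on that log2 scale, which understates the change of low genes.

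In Adamts16+/- hearts against WT hearts, 1 of 32 chains was called, where 2.75% of all genes tested were called, 1.57% higher and 1.18% lower. At an unadjusted p under 0.05 there were 14 chains, 8 higher and 6 lower, against 19.6% of all genes, 11.4% higher and 8.24% lower. In Adamts16+/H355Q hearts against WT hearts, 1 of 32 chains was called, where 0.376% of all genes were, 0.119% higher and 0.257% lower. There 10 chains had an unadjusted p under 0.05, all 10 lower, while 18.3% of all genes passed, 10.1% higher and 8.16% lower. Of the 32 chains, 26 lay below 0 in this comparison, with a median log2 fold change of -0.17, against 43.8% of all genes and a median of 0.02. In Adamts16+/- hearts against Adamts16+/H355Q hearts, 4 of 32 chains were called, all higher, where 10.0% of all genes were called, 5.71% higher and 4.33% lower. The 32 chains had a median log2 fold change of 0.17 there, against -0.02 for all genes, and 12 chains had an unadjusted p under 0.05, all higher, where 28.9% of all genes passed, 14.2% higher and 14.6% lower. The 3 comparisons share groups, so their counts are not independent of each other.

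The WT libraries that were used decided most of the counts against WT. Without WT libraries 5 to 7, none of 31 chains tested was called in Adamts16+/- hearts against WT hearts (59 of 15139 genes), and 11 were called in Adamts16+/H355Q hearts against WT hearts, all lower (3277 of 15139 genes). Those 11 were Col4a1 (-0.63), Col4a2 (-0.63), Col18a1 (-0.53), Col15a1 (-0.67), Col23a1 (-0.50), Col13a1 (-0.33), Col5a1 (-0.51), Col1a1 (-0.47), Col6a1 (-0.46), Col6a2 (-0.56) and Col6a6 (-0.38). Without WT libraries 1 to 4, no chain was called in Adamts16+/H355Q hearts against WT hearts (18 of 15209 genes) and 10 of 32 were called in Adamts16+/- hearts against WT hearts (2896 of 15209 genes). Of those 10, Col4a1 (0.46), Col4a2 (0.61), Col4a6 (0.49), Col18a1 (0.72), Col23a1 (0.44), Col13a1 (0.57) and Col2a1 (1.09) were higher, and Col14a1 (-0.74), Col1a2 (-0.58) and Col3a1 (-0.51) were lower. Col6a2 was -0.67 in Adamts16+/H355Q hearts against WT hearts without WT libraries 1 to 4, where it was not called, and -0.56 without WT libraries 5 to 7, where it was. Col14a1 was -0.46 in Adamts16+/- hearts against WT hearts without WT libraries 5 to 7, where it was not called. The differences between the 2 mutant groups rest on no WT value but share the WT libraries' spread. Without WT libraries 5 to 7, 8 of 31 chains were called between the mutants (3500 of 15139 genes, 23.1%, against 25.8% of chains). Without WT libraries 1 to 4, 6 of 32 were called (2609 of 15209 genes, 17.2%, against 18.75% of chains). Both sets held the 4 named above with Col4a1 and Col4a2 added.

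**Figure D1:**
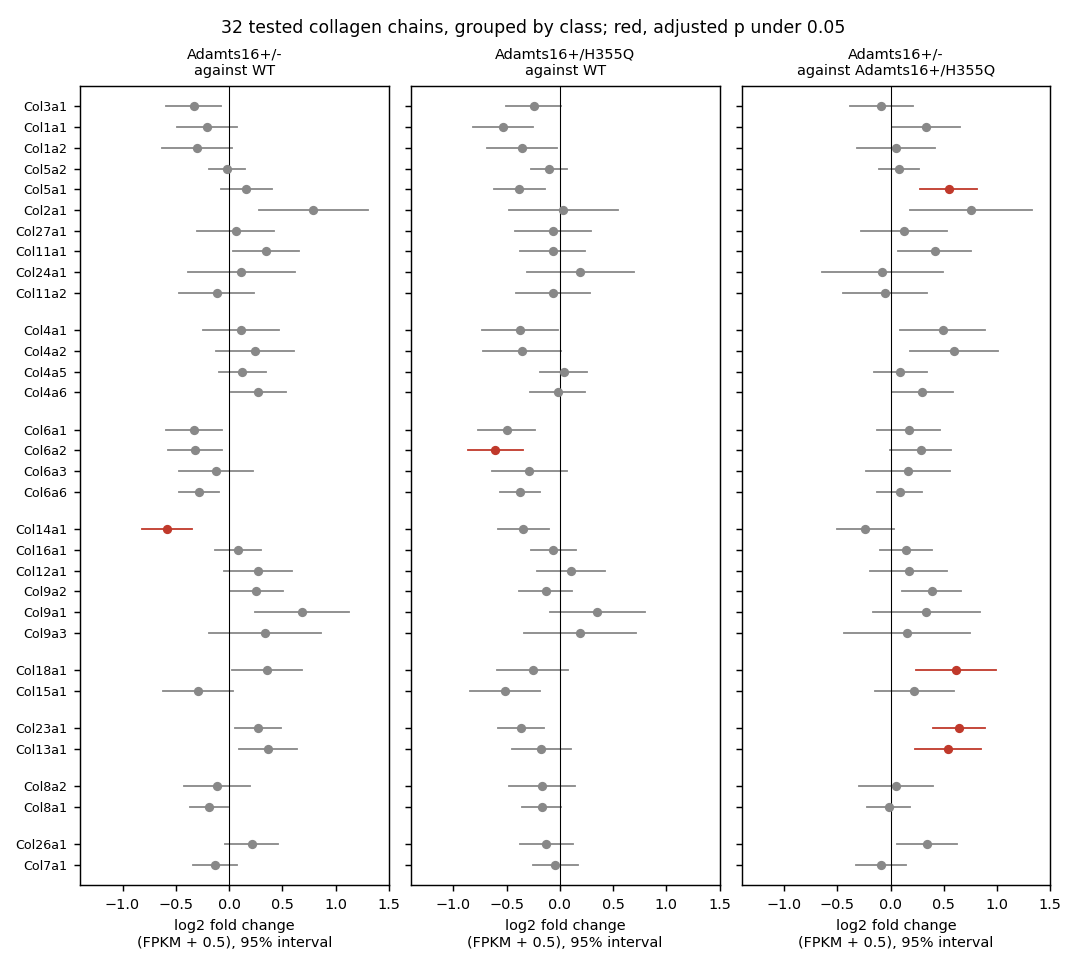
Log2 fold change (FPKM + 0.5) of the 32 tested chains with 95% intervals from limma, 1 panel for each comparison, chains grouped by class; red marks an adjusted p under 0.05. The Col14a1 interval at -0.58 and the Col6a2 interval at -0.60 lie left of 0 in the comparisons with WT, and 4 red intervals between 0.54 and 0.64 lie right of 0 in the comparison of the mutants.

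Levels differed widely, and a few chains carried most of the signal. The 44 chains summed to 559 to 743 FPKM in Adamts16+/- hearts, 501 to 597 FPKM in Adamts16+/H355Q hearts and 619 to 776 FPKM in WT hearts. The fibrillar chains made up 50.4 to 54.4% of that sum in Adamts16+/- hearts, 55.3 to 56.8% in Adamts16+/H355Q hearts and 51.4 to 64.1% in WT hearts. Basement membrane chains came next at 22.7 to 28.2%, 22.1 to 23.2% and 15.2 to 27.2% in the same groups, the lowest shares being those of WT libraries 6 and 7.

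**Figure D2:**
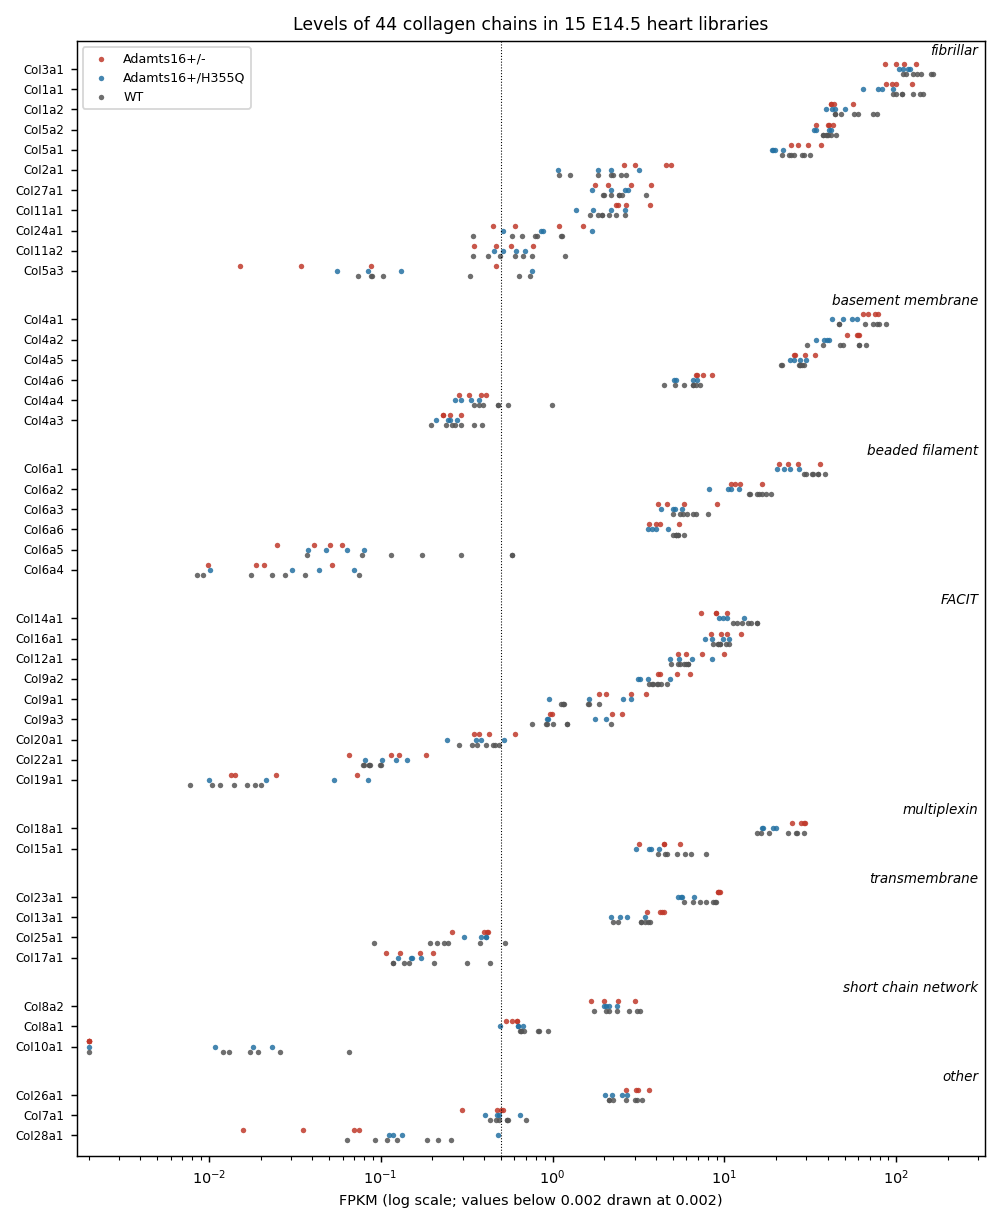
FPKM (log axis) of the 44 chains in 15 libraries, chains ordered by class and mean level, 1 point per library coloured by genotype; the dotted line is the 0.5 FPKM level used for testing. Col3a1 and Col1a1 exceed 64 FPKM in every library, and 12 chains have their mean left of the dotted line.

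Among the fibrillar chains, 5 of 10 tested lay below 0 in Adamts16+/- hearts against WT hearts and 8 of 10 in Adamts16+/H355Q hearts against WT hearts, and none of them was called in either. Of the 10, 3 lay below 0 in Adamts16+/- hearts against WT hearts without WT libraries 5 to 7 and 7 without WT libraries 1 to 4, where Col3a1 was called. Col3a1, the sole chain of type III collagen of distensible tissues, had 110, 130, 86.5 and 100 FPKM in Adamts16+/- hearts. It had 104, 117, 120 and 109 FPKM in Adamts16+/H355Q hearts, against 109 to 163 FPKM with a median of 132 in WT hearts. The groups overlapped, and Adamts16+/- hearts gave a log2 fold change of -0.33 (adjusted p = 0.149, limma), which was -0.20 without WT libraries 5 to 7 and -0.51 without WT libraries 1 to 4.

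Col1a1, the alpha1 chain of type I collagen, had 94.7, 123, 99.3 and 86.8 FPKM in Adamts16+/- hearts and 82.6, 78.7, 95.8 and 64.4 FPKM in Adamts16+/H355Q hearts, against 95.6 to 142 FPKM with a median of 108 in WT hearts. One Adamts16+/H355Q library exceeded the lowest WT library, and the log2 fold change of -0.54 had an adjusted p of 0.0739 (limma). Col1a2, its partner in the type I trimer, had 42, 55.9, 41.7 and 43.4 FPKM in Adamts16+/- hearts and 44.2, 42.5, 50.2 and 39.1 FPKM in Adamts16+/H355Q hearts, against 43.9 to 77.2 FPKM with a median of 56.5 in WT hearts. WT libraries 5 to 7 were 3 of the 4 highest, and the groups overlapped. The ratio of Col1a1 to Col1a2 within a library was 2.0 to 2.38 in Adamts16+/- hearts and 1.64 to 1.91 in Adamts16+/H355Q hearts, while WT hearts had 2.18 to 2.37 (libraries 1 to 4) and 1.71 to 1.91 (libraries 5 to 7). Each mutant group thus lay with a different part of the WT group.

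Col5a1, the alpha1 chain of type V collagen, which helps to start fibrils, had 30.7, 36.6, 24.4 and 26.6 FPKM in Adamts16+/- hearts and 18.9, 19.8, 21.9 and 19.2 FPKM in Adamts16+/H355Q hearts. WT hearts had 21.6 to 31.7 FPKM with a median of 25.3. Every Adamts16+/- library exceeded every Adamts16+/H355Q library, and the WT range lay between and across them. The mutants averaged 29.6 ± 5.36 and 19.9 ± 1.35 FPKM (SD, n = 4 each), a log2 difference of 0.54 ± 0.13 (SE; limma adjusted p = 0.0209). Leaving out Adamts16+/- library 1 or 2 moved the adjusted p to 0.0618 or 0.0624 (limma). Without Adamts16+/H355Q library 1, 2 or 4 it was 0.0521, 0.0607 or 0.0502, and without the filter on low values 0.0512 (limma). Exons of Col5a1 overlap those of 2810430I11Rik and Gm13372 on the opposite strand, and the strand of the libraries is not stated, so their reads cannot be told apart. The same holds for Col15a1 with Gm12426, Col6a6 with Gm38314 and Col9a3 with Tcfl5. An exon of Col3a1 overlaps the miRNA gene Gm47302 on the same strand.

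Col5a2, the alpha2 chain of the same trimer, varied less, with 40.7, 42.8, 34.3 and 40.0 FPKM in Adamts16+/- hearts, 33.2, 34.0, 41.5 and 40.9 FPKM in Adamts16+/H355Q hearts and 37.4 to 44.4 FPKM with a median of 39.4 in WT hearts. The ratio of Col5a1 to Col5a2 was 0.667 to 0.855 in Adamts16+/- hearts and 0.469 to 0.583 in Adamts16+/H355Q hearts, against 0.487 to 0.781 in WT hearts. Col5a3, another type V chain, lay below the level tested: it had 0.0880, 0.470, 0.0344 and 0.0151 FPKM in Adamts16+/- hearts and 0.0849, 0.757, 0.0560 and 0.131 FPKM in Adamts16+/H355Q hearts, against 0.0736 to 0.738 FPKM with a median of 0.103 in WT hearts. The highest Col5a3 values were in library 2 of each mutant group and in WT libraries 5 to 7.

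Col2a1, the type II chain best known from cartilage and also made in embryonic valves, had 4.55, 4.91, 2.62 and 3.01 FPKM in Adamts16+/- hearts and 1.83, 1.07, 3.2 and 2.2 FPKM in Adamts16+/H355Q hearts, against 1.1 to 2.67 FPKM with a median of 2.18 in WT hearts. Adamts16+/- library 3 lay below the highest WT library and the other 3 above it. The log2 fold change of 0.79 ± 0.24 (SE) against WT was the largest upward one of the 32 chains and missed the threshold (adjusted p = 0.0858, limma). Col11a1, a type XI chain that limits fibril width, had 2.68, 3.68, 2.36 and 2.40 FPKM in Adamts16+/- hearts and 1.37, 1.72, 2.65 and 2.20 FPKM in Adamts16+/H355Q hearts, against 1.64 to 2.62 FPKM with a median of 1.94 in WT hearts. Col11a2, its partner, had 0.572, 0.766, 0.348 and 0.470 FPKM in Adamts16+/- hearts and 0.455, 0.609, 0.694 and 0.516 FPKM in Adamts16+/H355Q hearts, against 0.346 to 1.19 FPKM with a median of 0.608 in WT hearts. Neither type XI chain was called.

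Of 7 cartilage markers, 6 had a mean below 0.5 FPKM and 3 were at 0 in some library. They summed to 1.19 to 1.97 FPKM in Adamts16+/- hearts and 1.23 to 1.65 FPKM in Adamts16+/H355Q hearts, against 1.11 to 4.19 FPKM in WT hearts. Within the mutant groups the sum was higher in the libraries with more Col2a1, at 1.54 and 1.97 FPKM in Adamts16+/- libraries 1 and 2 and 1.19 FPKM in each of libraries 3 and 4. It was 1.58 and 1.65 FPKM in Adamts16+/H355Q libraries 3 and 4 and 1.44 and 1.23 FPKM in libraries 1 and 2. Between WT libraries 1 to 4 and WT libraries 5 to 7 the sum and Col2a1 moved in opposite directions. The sum was 1.11 to 1.42 FPKM in WT libraries 1 to 4 and 2.30, 2.55 and 4.19 FPKM in libraries 5 to 7. Col2a1 was 1.83 to 2.67 FPKM in the former and 1.26, 1.10 and 2.18 FPKM in the latter. The part of these markers in the Col2a1 and type IX values was not tested. The other fibrillar chains, Col24a1 and Col27a1, stayed under 4 FPKM in every library and were not called.

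Among the basement membrane chains, all 4 tested lay above 0 in Adamts16+/- hearts against Adamts16+/H355Q hearts, with a median log2 fold change of 0.39, and none of them was called. Col4a1, the alpha1 chain of the ubiquitous type IV network, had 78.6, 75.3, 64.4 and 68.7 FPKM in Adamts16+/- hearts and 48.8, 54.9, 59.0 and 42.1 FPKM in Adamts16+/H355Q hearts, against 46.2 to 87.1 FPKM with a median of 73.2 in WT hearts. Col4a2, its partner, had 59.0, 60.5, 51.7 and 59.6 FPKM in Adamts16+/- hearts and 40.7, 38.0, 39.6 and 34.0 FPKM in Adamts16+/H355Q hearts, against 30.2 to 67.0 FPKM with a median of 49.2 in WT hearts. The mutant groups did not overlap for either chain, and 6 of the 32 tested chains did not overlap in this comparison, each higher in Adamts16+/- hearts, where 25.7% of all genes did not overlap, 12.6% higher and 13.1% lower. The log2 fold changes were 0.49 for Col4a1 (adjusted p = 0.101, limma) and 0.59 for Col4a2 (adjusted p = 0.0628, limma).

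Within the WT group, Col4a1 had 73.2, 77.7, 87.1 and 79.1 FPKM in libraries 1 to 4 and 65.5, 46.2 and 46.3 FPKM in libraries 5 to 7. The summed basement membrane chains stood at 149 to 175 FPKM in Adamts16+/- hearts and 111 to 136 FPKM in Adamts16+/H355Q hearts, while the WT sums were 160 to 189 FPKM (libraries 1 to 4) and 105 to 147 FPKM (libraries 5 to 7). Without WT libraries 5 to 7, 2 of the 4 tested chains lay below 0 in Adamts16+/- hearts against WT hearts, with a median of -0.01, where none did with all WT libraries. Endothelial markers moved in the same way: 5 of 5 were tested, and they summed to 148 to 153 FPKM in Adamts16+/- hearts and 112 to 118 FPKM in Adamts16+/H355Q hearts, while the WT sums were 160 to 169 FPKM (libraries 1 to 4) and 100 to 135 FPKM (libraries 5 to 7). Their part in the collagen differences was not tested.

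Col4a1 and Col4a2 kept step with each other. Over the 15 libraries each ranged 2.07-fold and 2.22-fold, while their ratio ranged 1.33-fold, within 1.15 to 1.53. Exons of the pair overlap on opposite strands at their starts, where reads cannot be told apart. Col4a5, known with Col4a6 from smooth muscle basement membranes, had 29.3, 25.6, 25.5 and 33.8 FPKM in Adamts16+/- hearts and 24.2, 25.4, 29.7 and 27.4 FPKM in Adamts16+/H355Q hearts, against 21.4 to 29.2 FPKM with a median of 27.4 in WT hearts. Col4a6, its head-to-head neighbour on the X chromosome with starts 1308 bases apart, had 7.5, 6.88, 6.84 and 8.43 FPKM in Adamts16+/- hearts and 5.09, 5.26, 6.96 and 6.60 FPKM in Adamts16+/H355Q hearts, against 4.44 to 7.18 FPKM with a median of 6.52 in WT hearts. The groups overlapped for both, and the ratio of Col4a5 to Col4a6 stayed within 3.72 to 4.84. Col4a3 and Col4a4, known from the glomerulus, lay below the level tested. Col4a3 ranged over 0.229 to 0.294 FPKM in Adamts16+/- hearts and 0.210 to 0.278 FPKM in Adamts16+/H355Q hearts, against 0.197 to 0.389 FPKM in WT hearts. Col4a4 ranged over 0.285 to 0.409, 0.271 to 0.373 and 0.350 to 0.999 FPKM in the same groups; its mean of 0.421 FPKM was the highest below the filter, while Col7a1, at 0.503 FPKM, was the lowest above it.

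Among the beaded filament chains, which are those of collagen VI, all 4 tested lay below 0 in both comparisons with WT. The median log2 fold change was -0.30 in Adamts16+/- hearts and -0.44 in Adamts16+/H355Q hearts, and all 4 stayed below 0 under median of ratios, quantile and TPM scaling. Of the 4, 3 lay below 0 in Adamts16+/- hearts with the replicate block, and likewise without WT libraries 5 to 7 or without Adamts16+/- library 3. Both comparisons use the same WT libraries. Col6a2, the alpha2 chain, had 12.3, 16.5, 11.0 and 11.4 FPKM in Adamts16+/- hearts and 10.9, 12.1, 10.5 and 8.14 FPKM in Adamts16+/H355Q hearts, against 13.9 to 18.6 FPKM with a median of 16.0 in WT hearts. Every Adamts16+/H355Q library lay below every WT library, and Adamts16+/- library 2 lay inside the WT range. The groups averaged 10.4 ± 1.66 FPKM in Adamts16+/H355Q hearts (SD, n = 4) and 16.0 ± 1.70 FPKM in WT hearts (SD, n = 7).

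Col6a2 fell by 0.60 ± 0.12 on the log2 scale (SE; limma adjusted p = 0.0422), a call close to its threshold. The adjusted p was 0.0611, 0.0520 or 0.0547 without Adamts16+/- library 1, 3 or 4, and 0.0651, 0.116 or 0.188 without Adamts16+/H355Q library 1, 3 or 4 (limma). It was 0.0872, 0.0805, 0.0620 or 0.0707 without WT library 2, 3, 5 or 6 (limma). It was 0.0588 with TPM scaling, 0.115 without the filter, 0.0587 in a fit of only these 2 genotypes and 0.112 without WT libraries 1 to 4 (limma). The call held in 14 of 28 alternatives, while the log2 fold change stayed between -0.68 and -0.50 in all 28.

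Col6a1, the alpha1 chain, had 26.7, 35.8, 20.9 and 23.5 FPKM in Adamts16+/- hearts and 22.3, 27.0, 24.0 and 20.1 FPKM in Adamts16+/H355Q hearts, against 28.9 to 38.4 FPKM with a median of 32.8 in WT hearts. Its log2 fold change in Adamts16+/H355Q hearts against WT hearts was -0.50 (adjusted p = 0.0739, limma). Col6a6, the alpha6 chain, which can take the place of alpha3, had 3.98, 5.46, 4.23 and 3.67 FPKM in Adamts16+/- hearts and 3.61, 4.71, 3.99 and 3.81 FPKM in Adamts16+/H355Q hearts, against 5.03 to 5.84 FPKM with a median of 5.26 in WT hearts. Col6a1, Col6a2 and Col6a6 were the 3 chains whose Adamts16+/H355Q and WT values did not overlap, all lower, where 2.65% of all genes did not overlap, 0.863% higher and 1.79% lower.

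Col6a3, the large alpha3 chain, had 5.82, 9.11, 4.10 and 4.67 FPKM in Adamts16+/- hearts and 4.27, 5.17, 5.01 and 5.67 FPKM in Adamts16+/H355Q hearts, against 5.02 to 8.07 FPKM with a median of 6.05 in WT hearts. It overlapped in every comparison. Adamts16+/- library 2 was the highest of its group for each of these 4 chains. The Col6a1 and Col6a2 genes lie 85161 bases apart on the same strand, and their ratio stayed within 1.91 to 2.47, a 1.30-fold range. Col6a4 and Col6a5, further alpha3-like chains, lay below the level tested. Col6a4 did not exceed 0.0518 FPKM in Adamts16+/- hearts, 0.0699 FPKM in Adamts16+/H355Q hearts and 0.0750 FPKM in WT hearts. Col6a5 did not exceed 0.0593 FPKM, 0.0798 FPKM and 0.582 FPKM in those groups.

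**Figure D3:**
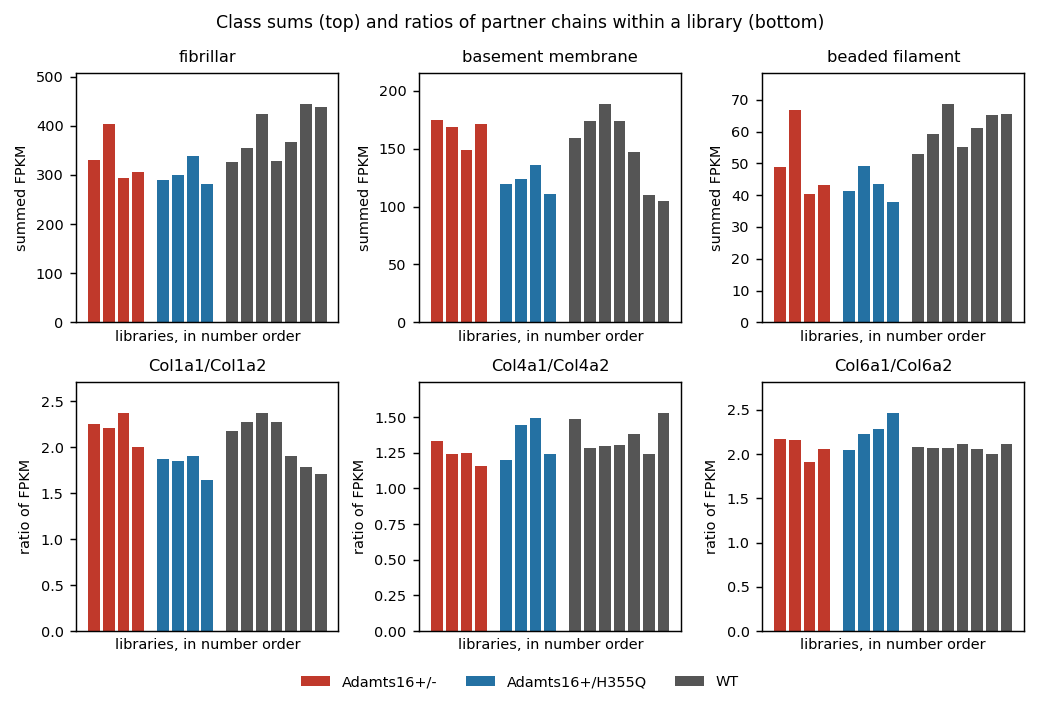
Summed FPKM of 3 chain classes (top) and ratios of partner chains (bottom), 1 bar per library in number order, axes from 0, coloured by genotype. The beaded filament sums are 37.8 to 49.1 FPKM in Adamts16+/H355Q hearts, all below the WT sums of 53.0 to 68.8 FPKM, and the Col4a1/Col4a2 ratio stays within 1.15 to 1.53.

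Among the FACIT chains, 1 of 6 tested was called in Adamts16+/- hearts against WT hearts and none in the other comparisons. Col14a1, a type XIV chain that sits on fibrils of tendon, skin and cardiac interstitium, had 8.90, 10.4, 7.35 and 8.94 FPKM in Adamts16+/- hearts and 9.81, 13.0, 10.3 and 9.26 FPKM in Adamts16+/H355Q hearts. WT hearts had 11.2 to 15.5 FPKM with a median of 13.7. Every Adamts16+/- library lay below every WT library, while Adamts16+/H355Q library 2 lay inside the WT range.

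Col14a1 averaged 8.89 ± 1.23 FPKM in Adamts16+/- hearts (SD, n = 4) and 13.5 ± 1.69 FPKM in WT hearts (SD, n = 7), and it fell by 0.58 ± 0.11 on the log2 scale (SE; limma adjusted p = 0.0190). Without WT libraries 5 to 7 it stood at -0.46 (adjusted p = 0.0863, limma), and without Adamts16+/- library 1 or 3 at -0.58 and -0.50 (adjusted p = 0.0630 and 0.0610, limma). In this comparison 4 chains did not overlap, Col14a1 and Col8a1 lower and Col23a1 and Col9a1 higher, where 5.79% of all genes did not overlap, 3.40% higher and 2.39% lower. Fibroblast and valve mesenchyme markers, 7 of 7 tested, summed to 163 to 200 FPKM in Adamts16+/- hearts and 206 to 247 FPKM in Adamts16+/H355Q hearts, against 202 to 341 FPKM in WT hearts. Among them Dpt (-1.72, limma adjusted p = 0.0174) and Postn (-0.41, limma adjusted p = 0.04998) fell in Adamts16+/- hearts against WT hearts and Twist1 rose (0.56, limma adjusted p = 0.0224). These marker calls come from the fit of all 15 libraries alone and were not checked in the alternatives. The part of these markers in the Col14a1 difference was not tested.

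Col9a1, a type IX chain that decorates type II fibrils, had 2.84, 3.51, 1.86 and 2.05 FPKM in Adamts16+/- hearts and 1.62, 0.955, 2.58 and 2.86 FPKM in Adamts16+/H355Q hearts, against 1.12 to 1.85 FPKM with a median of 1.17 in WT hearts. The Adamts16+/- values sat just above the WT values without overlap, and the log2 fold change of 0.69 had an adjusted p of 0.0869 (limma). Col9a2, its partner, had 5.33, 6.31, 4.09 and 4.20 FPKM in Adamts16+/- hearts and 3.23, 3.16, 4.79 and 3.59 FPKM in Adamts16+/H355Q hearts, against 3.65 to 4.65 FPKM with a median of 4.04 in WT hearts. Col9a3, the last chain of the trimer, had 2.21, 2.52, 0.995 and 0.972 FPKM in Adamts16+/- hearts and 0.929, 0.947, 2.04 and 1.76 FPKM in Adamts16+/H355Q hearts, against 0.757 to 2.20 FPKM with a median of 1.01 in WT hearts. Libraries 1 and 2 were the higher ones of the Adamts16+/- group for all 3 type IX chains and for Col2a1, and libraries 3 and 4 were those of the Adamts16+/H355Q group.

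Col16a1, a type XVI chain of matrix near smooth muscle and fibroblasts, had 10.4, 12.5, 8.35 and 9.54 FPKM in Adamts16+/- hearts and 7.73, 8.45, 10.7 and 9.81 FPKM in Adamts16+/H355Q hearts, against 8.62 to 10.6 FPKM with a median of 9.43 in WT hearts. The groups overlapped in every comparison, though Adamts16+/- library 2 lay above all other libraries. Col12a1, a type XII chain of stretched tissues, ranged over 5.37 to 9.94 FPKM in Adamts16+/- hearts and 4.81 to 8.45 FPKM in Adamts16+/H355Q hearts, against 4.89 to 6.16 FPKM in WT hearts. Col19a1, Col20a1 and Col22a1 lay below the level tested.

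Among the multiplexins, Col18a1 and Col15a1 differed in how they stood against WT. Col18a1, whose C-terminal fragment is endostatin, had 28.1, 29.1, 24.8 and 29.3 FPKM in Adamts16+/- hearts and 19.1, 16.5, 19.9 and 16.7 FPKM in Adamts16+/H355Q hearts. WT hearts had 23.5, 26.4, 29.1 and 26.1 FPKM in libraries 1 to 4 and 18.2, 16.4 and 15.4 FPKM in libraries 5 to 7. The mutants did not overlap, and each lay near a different part of the WT group. They averaged 27.8 ± 2.10 and 18.0 ± 1.73 FPKM (SD, n = 4 each), a log2 difference of 0.61 ± 0.17 (SE; limma adjusted p = 0.0399).

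That call was lost, at adjusted p values of 0.0552 to 0.106 (limma), when any 1 of the 8 mutant libraries was left out. It was also lost with median of ratios scaling (adjusted p = 0.0519, limma) and without the filter on low values (adjusted p = 0.102, limma). Against WT the log2 fold change of Col18a1 was 0.36 in Adamts16+/- hearts (adjusted p = 0.219, limma) and -0.26 in Adamts16+/H355Q hearts (adjusted p = 0.386, limma), and neither passed. Without WT libraries 5 to 7 these values were 0.08 and -0.53, and without WT libraries 1 to 4 they were 0.72 and 0.11; the -0.53 and the 0.72 passed. The endothelial marker sums given with the type IV chains were likewise lower in Adamts16+/H355Q hearts and in WT libraries 5 to 7. For Col23a1 and Col13a1 this held with overlap. Col23a1 had 7.85 FPKM in WT library 5 and 7.18 FPKM in WT library 4. Col13a1 had 3.45 FPKM in Adamts16+/H355Q library 3 and 3.29 FPKM in WT library 4. The part of the endothelial markers in these chains was not tested. Col15a1, a multiplexin of muscle and capillary basement membranes, had 4.43, 5.50, 3.2 and 4.43 FPKM in Adamts16+/- hearts and 3.63, 4.18, 3.72 and 3.05 FPKM in Adamts16+/H355Q hearts, against 4.10 to 7.79 FPKM with a median of 5.29 in WT hearts. Its log2 fold change in Adamts16+/H355Q hearts against WT hearts was -0.52 (adjusted p = 0.118, limma).

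Both transmembrane chains tested were higher in Adamts16+/- hearts than in Adamts16+/H355Q hearts. Col23a1, a type XXIII chain anchored in the cell membrane, had 9.26, 9.20, 9.24 and 9.37 FPKM in Adamts16+/- hearts and 5.36, 5.64, 6.62 and 5.55 FPKM in Adamts16+/H355Q hearts, against 5.81 to 8.91 FPKM with a median of 7.85 in WT hearts. The 4 Adamts16+/- values lay close together and above all other libraries. They averaged 9.27 ± 0.0739 FPKM, against 5.79 ± 0.561 FPKM in Adamts16+/H355Q hearts (SD, n = 4 each), a log2 difference of 0.64 ± 0.11 (SE; limma adjusted p = 0.0102). This call held in all 28 alternatives, and against WT the log2 fold change was 0.27 in Adamts16+/- hearts (adjusted p = 0.156, limma) and -0.37 in Adamts16+/H355Q hearts (adjusted p = 0.0994, limma). Without WT libraries 5 to 7 these were 0.14 and -0.50, and without WT libraries 1 to 4 they were 0.44 and -0.19; the -0.50 and the 0.44 passed.

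Col13a1, a transmembrane chain of adhesive junctions, had 4.36, 4.44, 3.53 and 4.24 FPKM in Adamts16+/- hearts and 2.48, 2.20, 3.45 and 2.73 FPKM in Adamts16+/H355Q hearts, against 2.24 to 3.68 FPKM with a median of 3.29 in WT hearts. The mutant groups were separated narrowly, by 3.53 and 3.45 FPKM. The log2 difference was 0.54 ± 0.15 (SE; limma adjusted p = 0.0324). Leaving out Adamts16+/- library 1, 2 or 4 moved the adjusted p to 0.0874, 0.0855 or 0.0552 (limma). Without Adamts16+/H355Q library 1, 2 or 4 it was 0.0769, 0.101 or 0.0646, and without the filter on low values 0.0828 (limma). The other transmembrane chains lay below the level tested. Col25a1, found mainly in neurons, ranged over 0.261 to 0.422 FPKM in Adamts16+/- hearts and 0.306 to 0.412 FPKM in Adamts16+/H355Q hearts, against 0.0918 to 0.530 FPKM in WT hearts, and Col17a1, of hemidesmosomes, did not exceed 0.433 FPKM in any library.

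**Figure D4:**
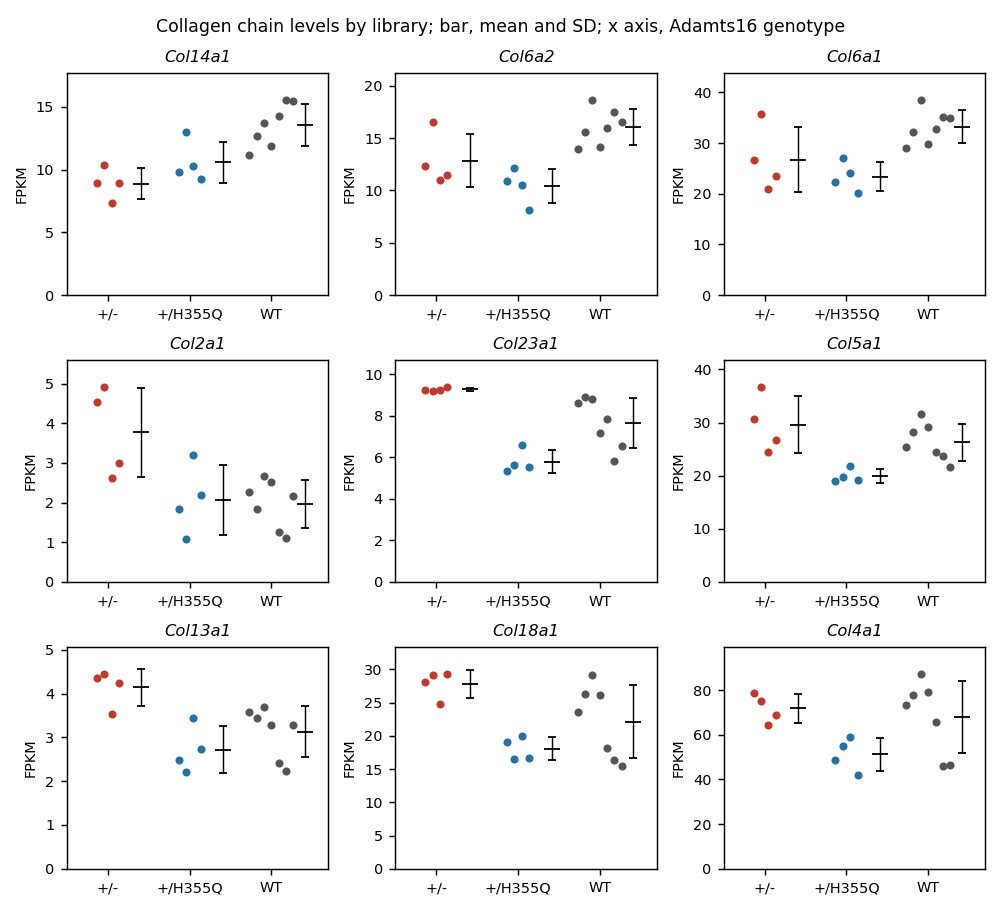
FPKM of 9 chains by library (points) with the mean and SD of each genotype (bars), axes from 0. Col14a1 in Adamts16+/- hearts (7.35 to 10.4 FPKM) lies below WT hearts (11.2 to 15.5 FPKM), Col6a2 in Adamts16+/H355Q hearts (8.14 to 12.1 FPKM) lies below WT hearts (13.9 to 18.6 FPKM), and Col23a1 in Adamts16+/- hearts (9.20 to 9.37 FPKM) lies above the other groups.

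Of the short chain network collagens, Col8a1, a type VIII chain of endothelial and vessel wall matrix, had 0.538, 0.622, 0.582 and 0.622 FPKM in Adamts16+/- hearts and 0.494, 0.629, 0.672 and 0.631 FPKM in Adamts16+/H355Q hearts, against 0.644 to 0.941 FPKM with a median of 0.680 in WT hearts. Its Adamts16+/- values lay just below the WT values, with a log2 fold change of -0.19 (adjusted p = 0.229, limma). Col8a2, the other type VIII chain, had 1.68, 3.0, 2.0 and 2.39 FPKM in Adamts16+/- hearts and 2.04, 2.13, 2.36 and 1.98 FPKM in Adamts16+/H355Q hearts, against 1.75 to 3.22 FPKM with a median of 2.36 in WT hearts. Col10a1, the chain of hypertrophic cartilage, was listed at 0 in all 4 Adamts16+/- libraries and did not exceed 0.0232 FPKM in Adamts16+/H355Q hearts and 0.0654 FPKM in WT hearts. Of the chains in no such class, Col26a1 ranged over 2.69 to 3.65 FPKM in Adamts16+/- hearts and 2.02 to 2.72 FPKM in Adamts16+/H355Q hearts, against 2.13 to 3.31 FPKM in WT hearts. Col7a1, of anchoring fibrils, ranged over 0.299 to 0.512, 0.406 to 0.648 and 0.433 to 0.705 FPKM in the same groups. Col28a1, below the level tested, had 0.0743, 0.0698, 0.0158 and 0.0354 FPKM in Adamts16+/- hearts and 0.133, 0.481, 0.117 and 0.112 FPKM in Adamts16+/H355Q hearts, against 0.0641 to 0.258 FPKM with a median of 0.124 in WT hearts. Its mutant groups did not overlap, while those of the other chains below that level did. Between the mutants 25.7% of the tested genes did not overlap, and no share was computed for genes below that level.

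Genes that make, trim, link and bind collagen were read beside the chains, 43 of them tested. Their calls come from the fit of all 15 libraries alone and were not checked in the alternatives. In Adamts16+/- hearts against WT hearts 2 of 43 rose and none fell, where 1.57% of all genes were called higher. P4ha1, a prolyl hydroxylase subunit that stabilises the triple helix, rose by 0.40 (limma adjusted p = 0.0434), and P3h2, a prolyl 3-hydroxylase, by 0.69 (limma adjusted p = 0.0316). In Adamts16+/H355Q hearts against WT hearts 2 of 43 fell and none rose, where 0.257% of all genes were called lower. These were Creb3l1, a transcription factor of collagen secretion (-0.64, limma adjusted p = 0.0227), and Bgn, the small proteoglycan biglycan (-0.43, limma adjusted p = 0.0422). The listed small proteoglycans, Bgn among them, summed to 116 to 127 FPKM in Adamts16+/H355Q hearts. WT libraries 1 to 4 had 116 to 140 FPKM and WT libraries 5 to 7 had 150 to 219 FPKM.

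In Adamts16+/- hearts against Adamts16+/H355Q hearts 9 of 43 were higher and none lower, where 5.71% of all genes were called higher. They include the lysyl hydroxylases Plod1 (0.36) and Plod3 (0.32), the chaperone Fkbp10 (0.48), the collagen export receptor Mia3 (0.46) and P4ha1 (0.45). The propeptide enhancer Pcolce (0.37), the cross-linking enzyme Loxl1 (0.48), Creb3l1 (0.70) and Bgn (0.50) complete the 9. None of the 9 tested collagen receptors, integrins and discoidin domain receptors among them, was called in any comparison.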

How the data were processed

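RNA-seq of 15 whole-heart samples was read as a table of FPKM values, deposited by the authors for every gene and library. Per the labels' protocols, TRIzol was used for total RNA and the VAHTS Universal V6 kit for the libraries. Tools listed in the submitters' processing notes, with no role or order, are HTSeq, HISAT2, fastp, DESeq2 and R 3.2.0; the step that gave FPKM and the genome build are not stated. Depth is known only as implied by the smallest values, of which 26.4 to 32.3% lay at 1 fragment, and whole reads were not recovered.

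Symbols, biotypes and positions came from GENCODE vM21 (GRCm38), matched by identifier for 55154 of 55335 identifiers. Promoter windows came from RefSeq (GRCm38.p6). The limma 3.58.1 package (R 4.3.3) was run with its variance trend on log2(FPKM + 0.5) for the 15172 genes that averaged 0.5 FPKM or more, in 1 model of all 15 libraries with genotype alone. Adjustment of p-values (Benjamini-Hochberg) ran over all genes tested. The test was checked on simulated data in which genes varied independently and the WT group had no split. That check therefore does not bear on calls that move with the WT libraries used. Chains named with values were those called, the 3 with the smallest p in each comparison, the 2 highest of each class and their trimer partners; Col4a5, Col4a6 and Col28a1 were added after their values were seen, and other chains are given by range. Class sums and ratios are descriptions without a test. Alternatives covered the pseudocount, filter, scaling, weighting, the replicate block, portions of the WT group and each library in turn. The members, gene lists and alternatives were chosen with earlier results of these data known.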

Additional observations from a re-analysis of the deposited data

Results flagged for a closer look

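Single libraries stood apart from the rest of their group for 5 chains, by a gap test on 90 groups of values in which chance marks about 1 in 20; it marked 6. Col1a2 had 55.9 FPKM in Adamts16+/- library 2, against 41.7 to 43.4 FPKM in the other 3 libraries of that genotype. Col4a2 had 51.7 FPKM in Adamts16+/- library 3, against 59.0 to 60.5 FPKM in the other 3. Col5a3 had 0.470 FPKM in Adamts16+/- library 2, against 0.0151 to 0.0880 FPKM in the other 3, and 0.757 FPKM in Adamts16+/H355Q library 2, against 0.0560 to 0.131 FPKM in the other 3. Col6a4 had 0.0750 FPKM in WT library 7, against 0.00850 to 0.0362 FPKM in the other 6, and Col9a3 had 2.20 FPKM there, against 0.757 to 1.22 FPKM in the other 6. WT library 7 also had the highest sum of lung epithelium markers, 79.7 FPKM, against 0.0938 to 13.7 FPKM in the other WT libraries; their part in these values was not tested.

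The levels of 4 of the 32 tested chains (12.5%) differed between the 2 mutant groups by the direct test between them. All 4 were higher in Adamts16+/- hearts, where 10.0% of all genes were called, 5.71% higher and 4.33% lower. The log2 differences of Adamts16+/- from Adamts16+/H355Q were 0.64 for Col23a1, 0.61 for Col18a1, 0.54 for Col5a1 and 0.54 for Col13a1. The call held in all 28 alternatives for Col23a1, 22 for Col5a1, 21 for Col13a1 and 18 for Col18a1. On the leading principal component, each mutant group lay with a different part of the WT group, which no label separates. The part of that unlabelled split in the 4 differences was not tested.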

How the results depend on the processing

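Of 28 alternatives, the number of chains called moved by over 1.5 times in these. In Adamts16+/- hearts against WT hearts (1 chain) it was 4 with array weights, 0 with the replicate block, 0 without WT libraries 5 to 7, 10 without WT libraries 1 to 4 and 0 to 2 with 1 library left out. In Adamts16+/H355Q hearts against WT hearts (1 chain) it was 0 without the filter, 2 with quantile normalization, 0 with TPM scaling, 0 in a fit of only these 2 genotypes, 11 with array weights, 10 with the replicate block, 11 without WT libraries 5 to 7, 0 without WT libraries 1 to 4 and 0 to 8 with 1 library left out, the 8 being without WT library 7. Between the mutants (4 chains) it was 1 without the filter, 7 with array weights, 7 with the replicate block, 8 without WT libraries 5 to 7 and 1 to 5 with 1 library left out. The causes were not tested. Over all genes, the counts of 417, 57 and 1524 in these 3 comparisons became 157, 24 and 580 without the filter, 1058, 2854 and 4352 with array weights, 8, 2762 and 2931 with the replicate block and 272, 24 and 3021 in fits of 2 genotypes; TPM scaling gave 754 in the first, and the second was 117 with quantile normalization and 37 with protein-coding genes only. With 1 library left out they were 42 to 463, 21 to 1416 and 286 to 2483. Of the genes called, 238 were higher and 179 lower in the first comparison, against 151 and 184 (median of ratios), 192 and 241 (quantile) and 591 and 163 (TPM). In the second 18 were higher and 39 lower, against 20 and 22 with TPM scaling, and in the third 867 and 657, against 713 and 773 (median of ratios), 948 and 919 (quantile) and 992 and 377 (TPM). The replicate numbers do not pair the samples: correlations of same-numbered deviations ran from -0.227 to 0.205, and numbers 5 to 7 exist only in WT, so the block compares the mutants with WT libraries 1 to 4. Among the 46 fold changes, 9 values in alternatives changed sign, none past the threshold. In Adamts16+/H355Q hearts against WT hearts these were Col18a1 (0.11) and Col13a1 (0.033) without WT libraries 1 to 4, and Col2a1 (0.03 with all libraries), which was -0.19 with the replicate block and without WT libraries 5 to 7 and ran from -0.16 to 0.25 with 1 library left out. Col6a6 between the mutants ran from -0.020 to 0.16 with 1 library left out. The chosen filter kept the 12 chains below a mean of 0.5 FPKM out of the main test. Without it 44 chains were tested. The only calls then were Col14a1 in Adamts16+/- hearts against WT hearts and Col23a1 between the mutants. Values near 0, as for Col10a1, are limited by depth.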
